A study of Homo sapiens with 18 samples.

Results

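The genes described here are 33 listed transcriptional targets of the tumour suppressor p53, chosen by symbol. A listed gene was taken where a row of the deposited table carried exactly 1 gene symbol equal to it, and 31 of the 33 had such a row, out of 18377 genes with a row of their own. The expression of BTG2 and FDXR is not analysed here. Of the 31 genes, 30 passed a filter on low signal and were tested. SPATA18, which takes part in mitochondrial quality control, lay below that filter, with signals between 5.15 and 5.74 on the 18 arrays.

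The arrays measured total RNA of confluent ECV304 cells, a human line, with 1 Affymetrix Human Gene 1.0 ST array per culture. Every culture had spent 24 h in medium with 1% serum and was then given IL-1β, an inflammatory cytokine, at 100 IU/ml. The control groups received IL-1β with plain medium, and the aminaphtone groups received IL-1β with aminaphtone, a vasoactive drug, at 6 µg/ml. RNA was taken after 1, 3 or 6 h, from 3 independent replicates for each of the 6 groups. No group lacked IL-1β, so a difference between times is a difference between IL-1β-treated cultures. A difference between treatments is one between IL-1β with aminaphtone and IL-1β with plain medium. Values are log2 signals, and differences are log2 differences, where 1 unit is a change by a factor of 2. A gene is said to have risen or fallen where its adjusted p was under 0.05 in limma, a linear-model test, with Benjamini-Hochberg adjustment over 15796 transcript clusters.

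p53 is a transcription factor that is held at a low level by the ubiquitin ligase MDM2 and is released by DNA damage and other stresses. Its targets halt the cell cycle (CDKN1A, which encodes the inhibitor p21), promote cell death (BAX, BBC3, the death receptors), repair DNA (XPC, DDB2) and switch p53 off again (MDM2, PPM1D). Several of them, GADD45B and GDF15 among them, are also induced by cytokines and by stresses that do not need p53. The labels call ECV304 endothelial, with endothelial and epithelial characteristics. DNA profiling has since shown that the line derives from a bladder carcinoma line, which limits it as a model of endothelium. The endothelial markers PECAM1, VWF, TEK, KDR and ERG were below the filter on low signal, 5 of the 11 listed. The other endothelial markers were above it, with ESAM at a mean of 8.82, EGFL7 at 8.41, CLDN5 at 7.73, ROBO4 at 7.11, CDH5 at 6.99 and TIE1 at 6.40. All 11 epithelial markers were above the filter, with KRT8 at a mean of 12.38, KRT18 at 11.75 and KRT7 at 11.36. Some of them lay near its cut of 6.193, with UPK3A at 6.51, CDH1 at 6.53, GATA3 at 6.65 and KRT19 at 6.70.

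The 3 control arrays at 1 h agreed less well with each other than the arrays of any other group. Over all transcript clusters tested, control replicates 1 and 2 at 1 h correlated at 0.889, replicates 1 and 3 at 0.958, and replicates 2 and 3 at 0.963, while no pair within another group fell below 0.97. The median standard deviation (SD) of the 30 tested genes was 0.307 in the control group at 1 h and 0.137 to 0.202 in the other 5 groups. The fit used 1 variance per gene for all 6 groups. The standard error of a difference therefore does not reflect the wider spread of the control group at 1 h. Where leaving out 1 array made or ended the call of 1 of these 30 genes between times, the value without it is given. Control calls that were lost when only the arrays compared were fitted are listed further below.

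5 of the genes, GADD45B, PLK2, CCNG2, GDF15 and TP53INP1, fell between 1 and 3 h both in controls and with aminaphtone. The windows before the start sites of 4 of these are printed, chosen because the genes fell in both treatments. That of TP53INP1 is not printed. The sequences are the 250 bases before the RefSeq start in GRCh38.p14, read 5′ to 3′ on the gene's strand. Capitals mark a match to the p53 half-site consensus or, within the last 50 bases, to the string TATANA, which was chosen after the windows had been seen. CCNG2 lies at chr4:77156957-77157206 on the plus strand, GADD45B at chr19:2475877-2476126 on the plus strand, GDF15 at chr19:18385908-18386157 on the plus strand, and PLK2 at chr5:58460087-58460336 on the minus strand.
CCNG2: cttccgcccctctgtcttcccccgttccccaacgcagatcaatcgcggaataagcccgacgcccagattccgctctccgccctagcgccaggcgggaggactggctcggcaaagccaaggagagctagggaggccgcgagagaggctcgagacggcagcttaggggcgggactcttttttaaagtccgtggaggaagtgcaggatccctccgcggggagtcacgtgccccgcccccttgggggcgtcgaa
GADD45B: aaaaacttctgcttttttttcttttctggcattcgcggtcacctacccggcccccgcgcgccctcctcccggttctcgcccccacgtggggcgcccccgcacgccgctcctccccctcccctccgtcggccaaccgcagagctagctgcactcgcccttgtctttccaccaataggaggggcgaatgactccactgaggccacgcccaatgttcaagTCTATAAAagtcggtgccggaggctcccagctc
GDF15: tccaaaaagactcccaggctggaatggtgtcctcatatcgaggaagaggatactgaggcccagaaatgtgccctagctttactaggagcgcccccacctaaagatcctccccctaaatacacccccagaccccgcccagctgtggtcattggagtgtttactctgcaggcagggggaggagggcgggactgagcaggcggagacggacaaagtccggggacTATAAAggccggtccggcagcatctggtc
PLK2: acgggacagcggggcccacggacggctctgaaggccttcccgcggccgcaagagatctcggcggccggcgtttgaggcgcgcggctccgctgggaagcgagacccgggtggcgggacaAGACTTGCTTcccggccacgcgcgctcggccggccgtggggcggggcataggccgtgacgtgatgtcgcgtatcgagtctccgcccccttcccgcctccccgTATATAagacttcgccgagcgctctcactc

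RefSeq windows were matched for 27 of the 33 genes, and every motif was sought on both strands. GADD45B, GDF15 and PLK2 each had a TATANA string 24 to 33 bases before the start, as had CDKN1A, and CCNG2 had none. Together 4 of 27 windows (14.8%) held it in their last 50 bases, against 5.75% of all 27305 windows. The string was chosen after the printed windows had been seen, so this comparison is not a test. The p53 half-site consensus, a string of 10 bases, was found in PLK2, AEN, RPS27L and FDXR, also 4 of 27 (14.8%), against 5.53% of all windows. The AP-1 string TGANTCA stood in BBC3, FAS and PERP (11.1%, against 6.6%), the cyclic AMP response element TGACGTCA in PPM1D (3.7%, against 1.77%), and the NF-kappaB consensus in none of the 27, against 5.05%. These matches describe the letters of the windows, and p53 also binds in introns and at sites farther away, which were not searched.

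The arrays measure bulk RNA, so fewer cells with a transcript and less of it per cell cannot be told apart. In cells given IL-1β alone, GDF15 (5.83-fold lower at 3 h than at 1 h) and GADD45B (4.62-fold lower) fell most, PLK2, TP53INP1, DDB2, XPC, CCNG2 and GADD45A also fell, and the death receptor gene TNFRSF10A rose. Most of the 30 genes did not pass. From 1 to 3 h, 8 of the 30 genes fell, against 7.98% of all transcript clusters tested, and 1 rose, against 4.81%. From 1 to 6 h, 11 fell, against 15.2% of all, and 2 rose, against 11.3%. The median difference over the 30 genes was -0.15 at 3 h and -0.18 at 6 h, beside -0.02 and -0.01 over all transcript clusters. With aminaphtone present the pattern was much alike. From 1 to 3 h 8 genes fell, against 5.45% of all, and 3 rose, against 5.09%, and from 1 to 6 h 10 fell, against 10.7%, and 1 rose, against 6.01%, where 16.7% of all were called in either direction. The medians with aminaphtone were -0.14 at 3 h and -0.39 at 6 h, beside 0.02 over all transcript clusters in both.

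The controls and the aminaphtone cultures share no arrays, so their differences between times were computed from separate cultures. Their calls are not independent, because the same fit estimated each gene's variance over the arrays of both treatments. Leaving out a control array at 1 h could change an aminaphtone call while the aminaphtone difference stayed the same, as for XPC and CCNG2 below. The overlaps of calls are therefore given as a description. Of the 8 genes that fell by 3 h in controls and the 8 that did so with aminaphtone, 5 were the same, which is 62.5% of the control list. Over all transcript clusters, 394 fell in both, or 31.2% of the control calls and 45.8% of the aminaphtone calls. By 6 h, 8 genes had fallen in both (GADD45A, GADD45B, PLK2, CCNG1, GDF15, TP53INP1, XPC and DDB2), out of 11 in controls and 10 with aminaphtone. Over all transcript clusters, 1055 had fallen in both, or 43.9% of the control calls and 62.3% of the aminaphtone calls. TNFRSF10A had risen in both at both times. Across the 30 genes the control and aminaphtone changes correlated at 0.858 from 1 to 3 h and 0.92 from 1 to 6 h (Pearson), against 0.481 and 0.685 over all transcript clusters. The direction was the same in both treatments for 25 of the 30 genes from 1 to 3 h and 22 from 1 to 6 h. GDF15 and GADD45B had the largest falls in both treatments, and the correlations without them were not computed. These correlations are across genes on the same arrays and are given as a description.

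**Figure D1:**
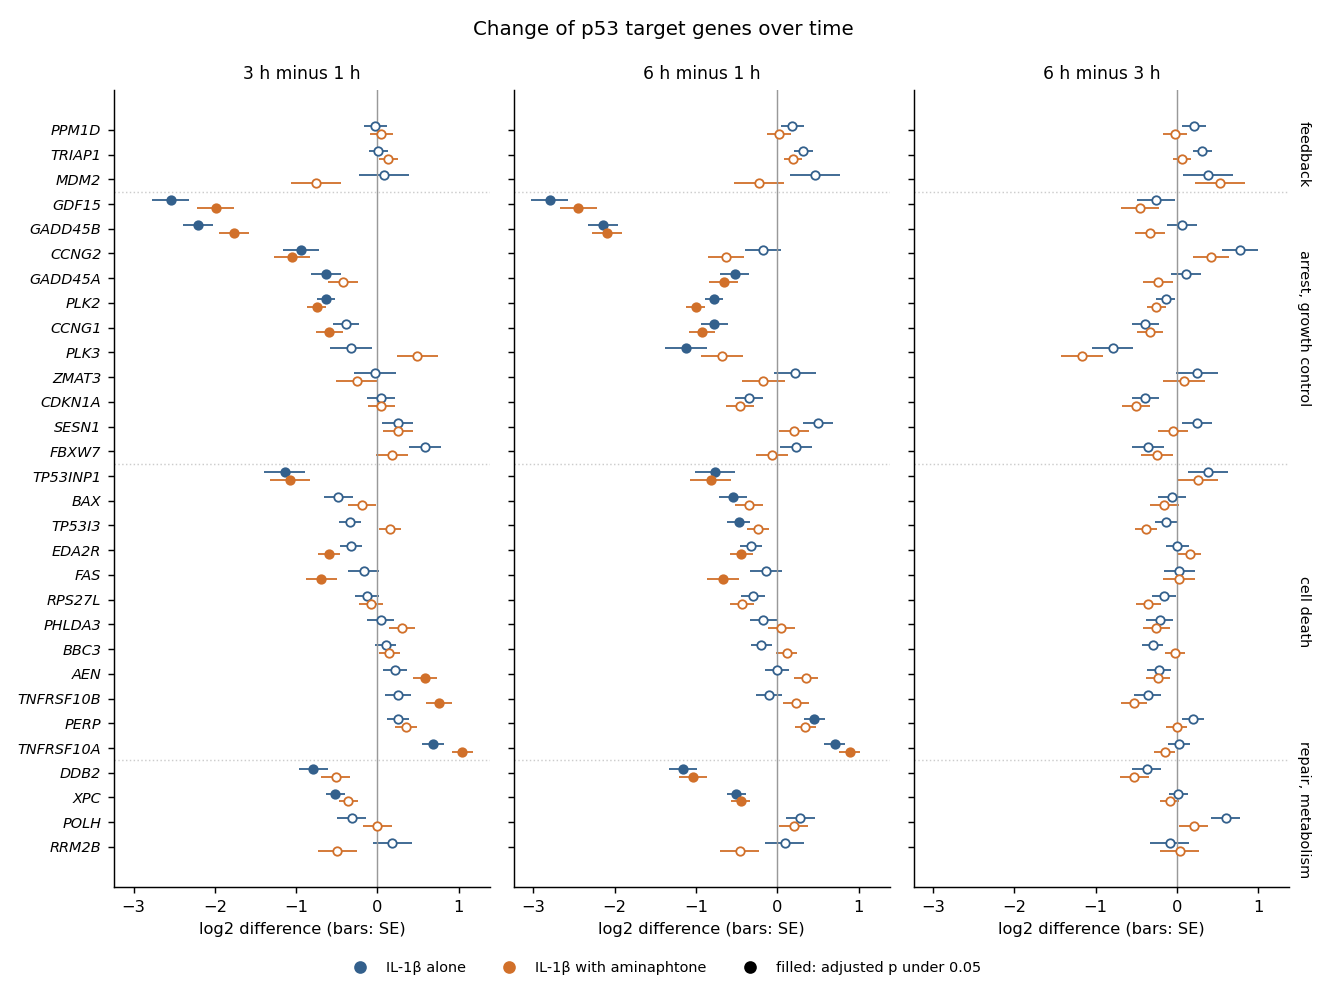
Log2 difference between times (x axis) for each of the 30 tested p53 target genes (rows, grouped by role), in control cultures (blue) and with aminaphtone (orange). Bars are standard errors, and filled points have an adjusted p under 0.05. GDF15 and GADD45B lie farthest to the left from 1 to 3 h and from 1 to 6 h in both treatments, and no point is filled from 3 to 6 h.

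The arrest and growth control genes held the largest changes, in GDF15, which encodes a secreted stress cytokine. In controls its signal was 13.08, 13.37 and 13.36 at 1 h, then 10.34, 11.21 and 10.62 at 3 h, and 10.53, 10.82 and 10.06 at 6 h. Every later array was more than 1 unit below every array at 1 h. GDF15 fell by 2.54 ± 0.23 (standard error, SE) from 1 to 3 h, a 5.83-fold decrease (limma adjusted p = 2.75e-06), and it fell by 2.80 ± 0.23 from 1 to 6 h, a 6.97-fold decrease (adjusted p = 5.24e-07). With aminaphtone the signal was 12.93, 12.82 and 12.76 at 1 h, 10.90, 11.20 and 10.43 at 3 h, and 10.65, 10.36 and 10.16 at 6 h. The differences from 1 h there were -1.99 ± 0.23 and -2.44 ± 0.23, both called, with no overlap between the arrays at 1 h and the later ones. The control and aminaphtone falls differed by 0.55 ± 0.32 at 3 h, which did not pass the test of the difference (limma adjusted p = 0.401).

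GADD45B, a stress sensor that activates the p38 and JNK kinase pathways, behaved alike. In controls it read 10.15, 11.01 and 10.49 at 1 h, 8.46, 8.20 and 8.37 at 3 h, and 8.48, 8.58 and 8.17 at 6 h. With aminaphtone the signals were 10.49, 10.48 and 10.51 at 1 h, 8.80, 8.90 and 8.50 at 3 h, and 8.59, 8.49 and 8.11 at 6 h. In both treatments the groups at 1 h and later did not overlap. GADD45B fell in both, with control differences from 1 h of -2.21 ± 0.19 at 3 h (4.62-fold, limma adjusted p = 1.24e-06) and -2.14 ± 0.19 at 6 h, and aminaphtone differences of -1.76 ± 0.19 and -2.10 ± 0.19.

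Its paralogue GADD45A, a growth arrest and DNA repair factor, changed by less. The control signals were 9.44, 9.30 and 9.79 at 1 h, 8.72, 9.20 and 8.70 at 3 h, and 8.83, 8.99 and 9.13 at 6 h, and the highest later array lay just under the lowest at 1 h. GADD45A fell by 0.64 ± 0.18 at 3 h (limma adjusted p = 0.0303) and 0.52 ± 0.18 at 6 h (adjusted p = 0.0424). Under aminaphtone it read 9.68, 9.64 and 9.99 at 1 h, 9.19, 9.74 and 9.10 at 3 h, and 9.0, 9.04 and 9.29 at 6 h. The array at 9.74, replicate 2, overlapped the 1 h group, and without it the difference at 3 h was -0.62 and passed (adjusted p = 0.046). With all arrays it did not, and GADD45A fell there only from 1 to 6 h, by 0.66 ± 0.18 (adjusted p = 0.0188). The GADD45A calls are fragile. The call in controls at 3 h did not hold without control 1 h replicate 3 (0.135 after adjustment), 3 h replicate 1 (0.134) or 3 h replicate 3 (0.116). At 6 h it was lost without control 1 h replicate 3 (0.185), control 6 h replicates 1 (0.142), 2 (0.0888) or 3 (0.0604), aminaphtone 1 h replicates 1 (0.0518) or 2 (0.0506), aminaphtone 6 h replicate 2 (0.0537), and with a trended and robust variance (0.0505). The aminaphtone call at 6 h was lost without aminaphtone 1 h replicate 3 (0.0923), aminaphtone 6 h replicate 1 (0.0731) or replicate 2 (0.071).

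PLK2 and PLK3 encode stress-responsive polo-like kinases. PLK2 in controls read 12.87, 12.38 and 12.69 at 1 h, 11.96, 12.07 and 12.01 at 3 h, and 11.85, 11.91 and 11.86 at 6 h. With aminaphtone it read 12.88, 12.78 and 12.73, then 11.98, 11.99 and 12.18, then 11.77, 11.82 and 11.80. All later arrays lay below all arrays at 1 h of the same treatment. PLK2 fell in controls by 0.63 ± 0.11 and 0.77 ± 0.11 at 3 and 6 h, and with aminaphtone by 0.75 ± 0.11 and 1.00 ± 0.11, the last being a 2.0-fold decrease (limma adjusted p = 1.68e-05).

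PLK3 followed another course. Its control signals were 9.33, 10.11 and 10.05 at 1 h, 9.17, 9.96 and 9.38 at 3 h, and 8.72, 8.73 and 8.69 at 6 h, so that the 6 h arrays were tightly grouped below all others. It fell by 1.12 ± 0.26 from 1 to 6 h in controls (limma adjusted p = 0.00459). With aminaphtone the signals were 9.26, 9.33 and 9.90 at 1 h, 9.92, 10.49 and 9.54 at 3 h, and 9.04, 8.67 and 8.74 at 6 h. From 3 to 6 h the difference with aminaphtone was -1.17 ± 0.26, which missed the threshold (adjusted p = 0.0721) and passed it without control 1 h replicate 1 (0.0197), control 1 h replicate 2 (0.032), control 3 h replicate 2 (0.0395) or aminaphtone 3 h replicate 3 (0.0456). From 1 to 6 h with aminaphtone PLK3 differed by -0.68 (adjusted p = 0.084) and passed without control 1 h replicate 1 (0.0364).

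The atypical cyclins CCNG1 and CCNG2 also differed from each other in timing. CCNG1, which recruits a phosphatase to MDM2, read 11.65, 11.25 and 11.21 in controls at 1 h, 10.78, 11.19 and 10.98 at 3 h, and 10.39, 10.51 and 10.88 at 6 h. The aminaphtone arrays read 11.77, 11.65 and 11.67, then 10.93, 11.22 and 11.16, then 10.46, 10.90 and 10.95. It fell by 0.78 ± 0.16 from 1 to 6 h in controls (limma adjusted p = 0.00277), and with aminaphtone by 0.59 ± 0.16 to 3 h (adjusted p = 0.0276) and 0.93 ± 0.16 to 6 h. The aminaphtone call at 3 h was lost without aminaphtone 1 h replicate 1 (0.117), 2 (0.0645) or 3 (0.0649), or aminaphtone 3 h replicate 1 (0.142).

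CCNG2, a cyclin linked to cell cycle arrest, was lowest at 3 h. In controls it read 8.43, 7.69 and 8.34 at 1 h, 7.53, 6.57 and 7.54 at 3 h, and 7.93, 7.93 and 8.09 at 6 h. With aminaphtone the signals were 8.42, 8.56 and 8.13, then 7.37, 7.23 and 7.36, then 7.71, 7.76 and 7.74. The 3 h arrays lay below all arrays of the other times in each treatment. CCNG2 fell by 0.94 ± 0.22 from 1 to 3 h in controls and by 1.05 ± 0.22 with aminaphtone (limma adjusted p = 0.00998 and 0.00527). The difference from 3 to 6 h was 0.77 ± 0.22 in controls, which did not pass (adjusted p = 0.167) except without control 1 h replicate 2 (0.0494). From 1 to 6 h with aminaphtone CCNG2 differed by -0.63 (adjusted p = 0.0597) and passed without control 1 h replicate 1 (0.0358), control 1 h replicate 2 (0.0226) or control 3 h replicate 2 (0.0121).

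CDKN1A, the best known arrest target of p53, passed the test in no comparison when all 18 arrays were fitted. In controls it read 9.95, 10.76 and 10.47 at 1 h, 10.23, 10.65 and 10.42 at 3 h, and 10.03, 9.94 and 10.17 at 6 h. With aminaphtone it read 10.26, 10.36 and 10.52, then 10.34, 10.66 and 10.29, then 10.00, 9.91 and 9.86. The aminaphtone arrays at 6 h lay below all those at 1 and 3 h of that treatment, with a difference of -0.51 ± 0.17 from 3 to 6 h (limma adjusted p = 0.266). From 1 to 6 h the CDKN1A difference was -0.35 in controls (adjusted p = 0.149) and -0.46 with aminaphtone (0.0778). Without control 1 h replicate 1 it was called lower in both, at -0.57 in controls (0.00472) and -0.46 with aminaphtone (0.0166), and without control 1 h replicate 2 it was called lower with aminaphtone (0.0282). ZMAT3, FBXW7 and SESN1, which encode an RNA-binding protein, a ubiquitin ligase subunit and a regulator of growth signalling, also passed in no comparison over all arrays. Without control 1 h replicate 1, all 3 were called higher in controls from 1 to 6 h, ZMAT3 at 0.56 (adjusted p = 0.0445, against 0.22 with all arrays), FBXW7 at 0.50 (0.0244, against 0.23) and SESN1 at 0.65 (0.00975, against 0.50), and FBXW7 also from 1 to 3 h (0.00153). SESN1 was also called there without control 3 h replicate 2 (0.0363), aminaphtone 3 h replicate 2 (0.0496) or replicate 3 (0.0322). In all, 5 of 11 arrest and growth control genes fell by 3 h in controls and 6 by 6 h, and 5 did so at each of those times with aminaphtone. Of all transcript clusters, 7.98% and 15.2% fell by 3 and 6 h in controls, and 5.45% and 10.7% with aminaphtone. None of the 11 was called higher over all arrays. Of all transcript clusters, 4.81% and 11.3% rose by those times in controls, and 5.09% and 6.01% with aminaphtone.

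**Figure D2:**
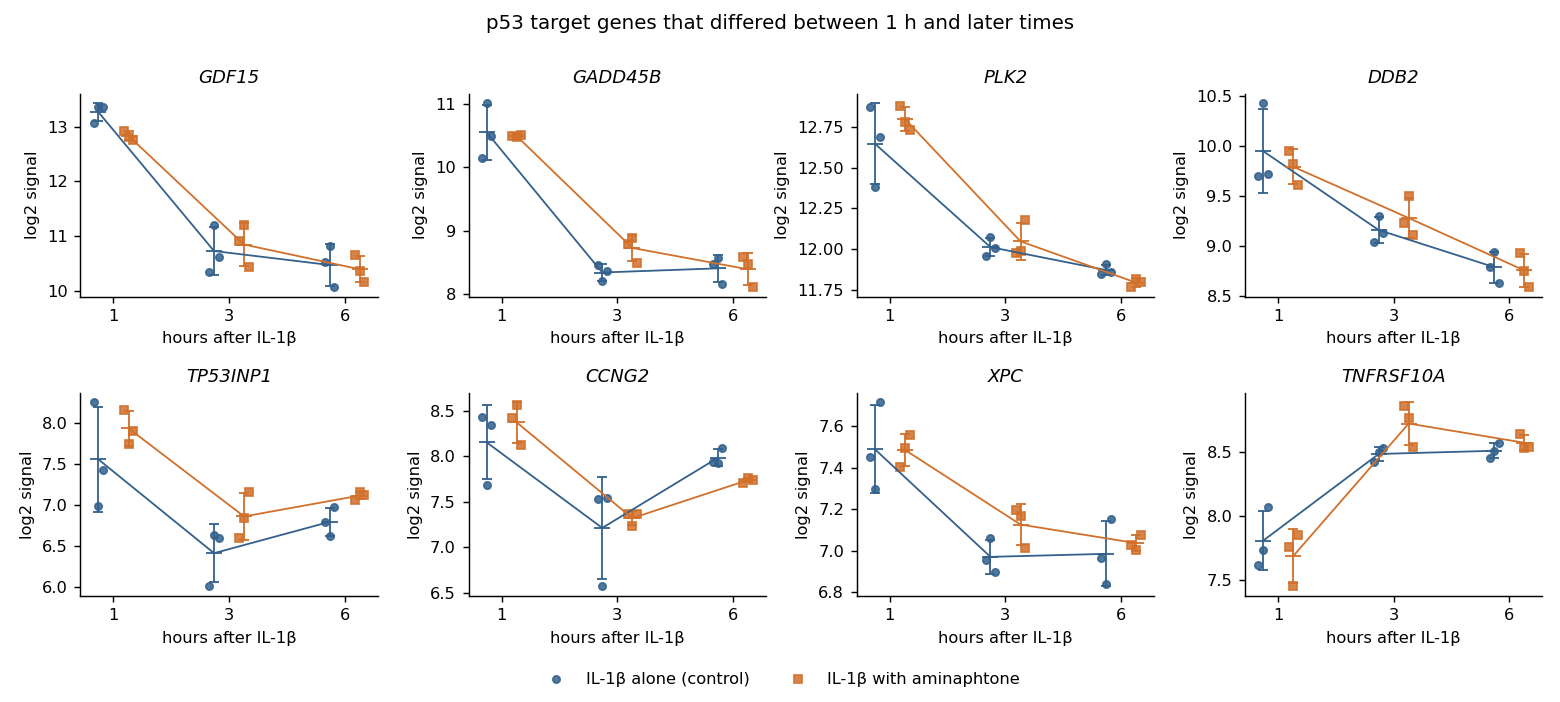
Log2 signal (y axis, own scale for each gene) against hours after IL-1β (x axis) for 8 p53 target genes that differed between 1 h and later. Each point is 1 array, and horizontal ticks with bars are group means with 1 SD (n = 3). GDF15, GADD45B and PLK2 have no later array as high as any array at 1 h of the same treatment, CCNG2 is lowest at 3 h, and TNFRSF10A is the gene that rises.

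Among the 12 tested cell death genes some rose and others fell. In controls 1 rose and 1 fell by 3 h, and 2 rose and 3 fell by 6 h, and with aminaphtone 3 rose and 3 fell by 3 h, and 1 rose and 3 fell by 6 h. The shares of all transcript clusters were 4.81% higher and 7.98% lower by 3 h in controls and 11.3% and 15.2% by 6 h, so the control counts are near them, and 5.09% and 5.45%, then 6.01% and 10.7%, with aminaphtone. TNFRSF10A and TNFRSF10B encode the death receptors of the ligand TRAIL. TNFRSF10A in controls read 7.62, 7.73 and 8.07 at 1 h, 8.42, 8.51 and 8.53 at 3 h, and 8.46, 8.51 and 8.58 at 6 h. Its aminaphtone arrays gave 7.75, 7.45 and 7.85, then 8.87, 8.77 and 8.54, then 8.65, 8.54 and 8.55. All later arrays of a treatment lay above all its arrays at 1 h. TNFRSF10A rose in controls by 0.68 ± 0.13 at 3 h (1.60-fold, limma adjusted p = 0.00266) and 0.71 ± 0.13 at 6 h, and with aminaphtone by 1.04 ± 0.13 (2.06-fold) and 0.89 ± 0.13.

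TNFRSF10B read 10.49, 10.24 and 10.79 in controls at 1 h, 10.51, 11.10 and 10.68 at 3 h, and 10.37, 10.34 and 10.48 at 6 h. The aminaphtone arrays read 10.20, 10.25 and 10.58, then 11.10, 11.28 and 10.92, then 10.61, 10.52 and 10.58. The control groups overlapped, while the aminaphtone arrays at 3 h lay above all others of that treatment. It rose with aminaphtone by 0.76 ± 0.16 from 1 to 3 h (limma adjusted p = 0.0057). The control difference was 0.26 ± 0.16, and the difference between both changes was 0.50 ± 0.23, which did not pass (adjusted p = 0.347).

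FAS encodes another death receptor, and EDA2R a receptor of ectodysplasin. FAS in controls read 7.67, 7.15 and 7.55 at 1 h, 7.23, 7.39 and 7.25 at 3 h, and 7.13, 7.24 and 7.59 at 6 h, with overlap at all times. With aminaphtone it read 8.01, 7.51 and 7.93 at 1 h, 6.85, 7.30 and 7.23 at 3 h, and 6.74, 7.26 and 7.44 at 6 h, so that no later array reached the 1 h group. FAS fell with aminaphtone by 0.69 ± 0.19 to 3 h and by 0.67 ± 0.19 to 6 h (limma adjusted p = 0.0303 and 0.025). The control differences were -0.17 ± 0.19 and -0.14 ± 0.19, and the test of the difference between treatments did not pass at 3 h (adjusted p = 0.371) or 6 h (0.432). The FAS call at 3 h was lost without aminaphtone 1 h replicate 1 (adjusted p = 0.155) or 3 (0.103), or aminaphtone 3 h replicate 1 (0.168). The call at 6 h was lost without aminaphtone 1 h replicate 1 (0.117) or 3 (0.0899), or aminaphtone 6 h replicate 1 (0.145).

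EDA2R fell with aminaphtone by 0.60 ± 0.14 to 3 h and 0.44 ± 0.14 to 6 h. Its call at 3 h was lost without aminaphtone 1 h replicate 1 (limma adjusted p = 0.0517). The call at 6 h was lost without aminaphtone 1 h replicates 1 (0.12) or 2 (0.124), or any of the aminaphtone 6 h replicates (0.0597, 0.142 and 0.0783). In controls EDA2R passed without control 1 h replicate 2, at -0.50 to 3 h (0.0126) and -0.49 to 6 h (0.00837), where the differences with all arrays were -0.33 and -0.32. AEN, an apoptosis-enhancing nuclease, rose with aminaphtone by 0.59 ± 0.15 from 1 to 3 h, from a mean of 9.19 ± 0.03 (SD, n = 3) to 9.77 ± 0.10. That call was lost without aminaphtone 1 h replicates 1 (0.0525) or 3 (0.0523), or aminaphtone 3 h replicate 1 (0.0823). The control differences of AEN were 0.22 ± 0.15 and 0.00 ± 0.15. From 1 to 6 h with aminaphtone AEN differed by 0.35 and passed without control 1 h replicate 1 (adjusted p = 0.0326) or 2 (0.0418).

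TP53INP1 encodes a stress protein that promotes cell death and autophagy. In controls it read 8.25, 6.98 and 7.43 at 1 h, 6.01, 6.64 and 6.60 at 3 h, and 6.79, 6.62 and 6.97 at 6 h, with a wide spread at 1 h (SD 0.64). Under aminaphtone it read 8.16, 7.74 and 7.90, then 6.59, 6.84 and 7.15, then 7.06, 7.15 and 7.13. No later array reached the 1 h group of its treatment. It fell in controls by 1.14 ± 0.25 at 3 h (2.21-fold, limma adjusted p = 0.006) and 0.76 ± 0.25 at 6 h, and with aminaphtone by 1.07 ± 0.25 and 0.82 ± 0.25. The control call at 6 h was lost without control 1 h replicate 1 (0.105) or 3 (0.0502), or control 6 h replicates 1 (0.0738), 2 (0.101) or 3 (0.0505). The aminaphtone call at 3 h was lost without aminaphtone 1 h replicate 1 (0.061) or 3 h replicate 1 (0.0616). The aminaphtone call at 6 h was lost without aminaphtone 1 h replicates 1 (0.129) or 3 (0.0691), or any of the 6 h replicates (0.0854, 0.0727 and 0.0732).

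Of the mitochondrial death effectors, BAX fell by 0.54 ± 0.17 from 1 to 6 h in controls, from 10.23 ± 0.40 to 9.68 ± 0.20, with arrays that overlapped (limma adjusted p = 0.0294). BBC3, which encodes the BH3-only protein PUMA, passed in no time comparison. TP53I3, a quinone oxidoreductase, fell by 0.48 ± 0.14 over the same interval (adjusted p = 0.0161), and PERP, a membrane protein of desmosomes, rose by 0.46 ± 0.13 (adjusted p = 0.018). These calls are sensitive to single arrays. BAX was lost without control 1 h replicates 2 (0.148) or 3 (0.0725), or control 6 h replicates 1 (0.068) or 3 (0.134). TP53I3 was lost without control 1 h replicate 2 (0.0713) or control 6 h replicate 3 (0.0634). PERP was lost without control 1 h replicate 2 (0.0722) or control 6 h replicates 1 (0.0621) or 3 (0.0863). From 1 to 3 h in controls, BAX (adjusted p = 0.00397) and TP53I3 (0.0144) passed without control 1 h replicate 1, both lower. With aminaphtone, PERP passed without control 1 h replicate 2 at 3 h (0.0124) and 6 h (0.00938). PHLDA3 and RPS27L passed in no time comparison over all arrays. RPS27L, a ribosomal protein paralogue, differed by -0.44 from 1 to 6 h with aminaphtone (0.0541) and passed without control 1 h replicates 1 (0.0237) or 2 (0.0327), control 3 h replicate 1 (0.0404) or aminaphtone 6 h replicate 3 (0.0224).

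Of the 4 tested genes of repair and nucleotide supply, 2 fell in controls by 3 h and by 6 h, DDB2 and XPC. Of all transcript clusters, 7.98% and 15.2% fell there. With aminaphtone neither passed by 3 h, and the same 2 fell by 6 h, against 10.7% of all. DDB2 and XPC encode subunits of the complexes that find ultraviolet lesions for nucleotide excision repair. DDB2 in controls read 9.70, 10.43 and 9.72 at 1 h, 9.04, 9.30 and 9.13 at 3 h, and 8.79, 8.94 and 8.63 at 6 h. Its aminaphtone arrays gave 9.95, 9.82 and 9.61, then 9.23, 9.5 and 9.11, then 8.93, 8.75 and 8.59. In both treatments every array at 3 and 6 h lay below every array at 1 h. DDB2 fell in controls by 0.79 ± 0.18 at 3 h and 1.16 ± 0.18 at 6 h (2.24-fold, limma adjusted p = 0.000229), and with aminaphtone by 1.04 ± 0.18 at 6 h (2.05-fold). XPC fell in controls by 0.52 ± 0.12 and 0.51 ± 0.12 at 3 and 6 h, and with aminaphtone by 0.45 ± 0.12 at 6 h. The last call was lost without aminaphtone 1 h replicate 3 (adjusted p = 0.0549) or aminaphtone 6 h replicate 2 (0.0508). From 1 to 3 h with aminaphtone, DDB2 (-0.51, adjusted p = 0.076) and XPC (-0.36, 0.0572) missed the threshold. DDB2 passed without control 1 h replicates 1 (0.0395) or 2 (0.0113), and XPC without control 1 h replicates 1 (0.0394), 2 (0.0223) or 3 (0.0408).

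POLH, a polymerase that copies past lesions, and RRM2B, a subunit of ribonucleotide reductase, passed in no time comparison. The POLH difference from 3 to 6 h in controls was 0.60 ± 0.18 (limma adjusted p = 0.185).

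None of the 3 feedback genes was called between times when all arrays were fitted. MDM2, the ubiquitin ligase that degrades p53, read 11.01, 9.25 and 10.44 in controls at 1 h, 10.61, 9.89 and 10.43 at 3 h, and 10.65, 10.60 and 10.84 at 6 h. Its SD at 1 h, 0.90, was the largest of the 30 genes in that group, and control replicate 2 was the lowest array. With aminaphtone MDM2 read 11.02, 10.84 and 10.83 at 1 h, 9.93, 9.96 and 10.54 at 3 h, and 10.49, 10.77 and 10.76 at 6 h. The aminaphtone arrays at 3 h lay below those at 1 h, by 0.75 ± 0.31 on average, which did not pass (limma adjusted p = 0.147). It passed without control 1 h replicate 1 (0.0398) or replicate 2 (0.0134). In controls from 1 to 6 h MDM2 differed by 0.46 (0.298) and was called higher without control 1 h replicate 1, at 0.85 (0.0163). PPM1D, a phosphatase that inactivates p53 and its kinases, and TRIAP1, a small inhibitor of cell death, passed in no time comparison over all arrays. TRIAP1 differed by 0.32 from 1 to 6 h in controls, at the threshold (adjusted p = 0.0505), and was called higher without control 1 h replicate 1 (0.0344), control 3 h replicates 1 (0.0445) or 2 (0.0297), or aminaphtone 3 h replicates 1 (0.0469) or 2 (0.0488).

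Between 3 and 6 h none of the 30 genes passed in either treatment in limma, against 0.513% of all transcript clusters in controls and 0.266% with aminaphtone. At an unadjusted p under 0.05 there were 9 of 30 genes in controls, against 10% of all, and 7 with aminaphtone, against 9.82%.

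Some of these counts depend on which arrays entered the fit. When only the arrays of the 2 times compared were fitted, limma called 2 genes, GDF15 and GADD45B, from 1 to 3 h in controls, in place of 9. PLK2, TNFRSF10A, TP53INP1, DDB2, XPC, CCNG2 and GADD45A lost that call, with limma adjusted p of 0.121 to 0.229. From 1 to 6 h in controls it called 7 in place of 13. XPC, TP53I3, PERP, BAX, TP53INP1 and GADD45A lost that call, with limma adjusted p of 0.108 to 0.193. With aminaphtone, fitting only the arrays compared gave 18 genes from 1 to 6 h in place of 11. The share of all transcript clusters called in these fits is not given here. These counts therefore do not set the genes apart from the whole array. Without control 6 h replicate 3 the control count at 6 h was 8, and 16.4% of all transcript clusters were called in place of 26.5%. Without aminaphtone 1 h replicate 1 the aminaphtone count at 3 h was 6 in place of 11, and without aminaphtone 3 h replicate 1 it was 7. The share of all transcript clusters called there was 5% and 5.25% in place of 10.5%. The aminaphtone count at 6 h was 7 without any 1 of aminaphtone 1 h replicate 3, 6 h replicate 1 or 6 h replicate 2. In those fits 12.4%, 12% and 10.9% of all were called, in place of 16.7%. GDF15, GADD45B, PLK2 and TNFRSF10A were called in all 4 comparisons with 1 h in each of the 18 fits that left out 1 array.

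Aminaphtone made little measurable difference to these genes. At 1 h, none of the 30 passed in limma in either direction, against 0.0886% of all transcript clusters, 0.0506% higher and 0.038% lower. At 3 h none passed, against 0.019% in each direction, and at 6 h none passed, against 0% higher and 0.108% lower. At an unadjusted p under 0.05 there were 7 of the 30 genes at 1 h, 6 at 3 h and 1 at 6 h. Of all transcript clusters, 30.8%, 6.5% and 3.93% were under it. The median difference (aminaphtone minus control) over the 30 genes was 0.16, 0.14 and 0.04 at 1, 3 and 6 h, beside -0.10, 0.00 and -0.01 over all transcript clusters. The absolute difference was under 0.5 for 26 of the genes at 1 h, 29 at 3 h and all 30 at 6 h. Its median over the 30 genes was 0.305, 0.212 and 0.0773 at 1, 3 and 6 h. Over all transcript clusters it was 0.246, 0.119 and 0.0893. The test of whether the aminaphtone difference changed with time called none of the 30, against 0.038% of all, and none had an unadjusted p under 0.05 in it, against 9.23%. The smallest adjusted p in that test were those of TP53I3 (0.546) and PLK3 (0.581).

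**Figure D3:**
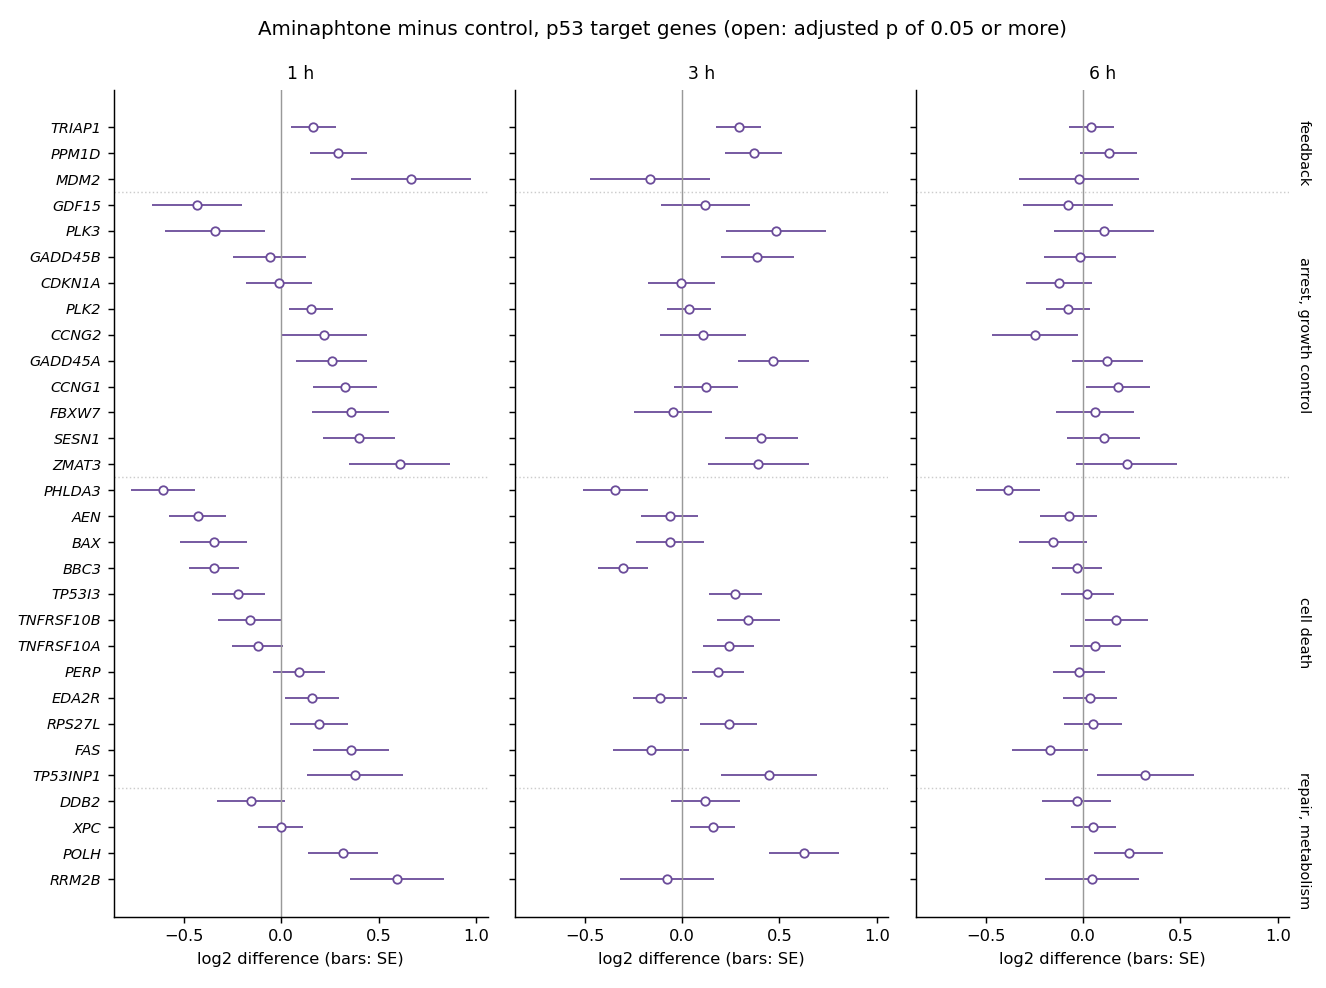
Log2 difference, aminaphtone minus control (x axis), at 1, 3 and 6 h for the 30 tested p53 target genes (rows, grouped by role). Bars are standard errors, and all points are open because none had an adjusted p under 0.05 at a single time. PHLDA3 lies left of 0 at all 3 times, and the points draw closer to 0 at 6 h.

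Averaged over the times, PHLDA3 was the 1 gene that passed, against 0.829% of all transcript clusters. It was lower with aminaphtone, as were 0.405% of all, and no gene was higher, against 0.424%. At an unadjusted limma p under 0.05 there were 11 of the 30 genes for the average, against 18.9% of all. Of the 30 average differences, 23 were positive and 7 negative. PHLDA3 encodes a small protein that restrains the kinase AKT. It read 8.0, 8.67 and 8.48 in controls at 1 h and 7.58, 8.0 and 7.76 with aminaphtone. At 3 h the control arrays were 8.35, 8.62 and 8.30 and the aminaphtone arrays 8.01, 8.25 and 7.99, and at 6 h they were 8.23, 8.06 and 8.35 against 8.03, 7.66 and 7.80. At each time all aminaphtone arrays lay below all control arrays, though at 1 h and 6 h by a narrow margin. The difference was -0.61 ± 0.17 at 1 h (limma adjusted p = 0.138), -0.34 ± 0.17 at 3 h (0.776) and -0.39 ± 0.17 at 6 h (1). The average was -0.45 ± 0.10, a 1.36-fold decrease (adjusted p = 0.0392).

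The PHLDA3 call is close to the threshold. Of the 18 fits that left out 1 array, 5 called it. It was lost without control 1 h replicate 3 (limma adjusted p = 0.0696), control 3 h replicates 1 (0.0564), 2 (0.0815) or 3 (0.0501), or control 6 h replicates 1 (0.094), 2 (0.0512) or 3 (0.0752). It was also lost without aminaphtone 1 h replicates 1 (0.109) or 3 (0.077), 3 h replicates 1 (0.0872) or 3 (0.0842), or 6 h replicates 2 (0.103) or 3 (0.0936). The difference itself stayed negative throughout.

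POLH had the next smallest p, with an average difference of 0.39 ± 0.10 that did not pass (limma adjusted p = 0.083) except without control 1 h replicate 1 (0.0256). Its control arrays were 9.07, 9.11 and 9.36 at 1 h, 9.0, 8.45 and 9.16 at 3 h, and 9.42, 9.59 and 9.39 at 6 h. With aminaphtone they were 9.60, 9.29 and 9.60, then 9.85, 9.38 and 9.26, then 9.88, 9.62 and 9.60. The groups overlapped at 1 h and did not at 3 or 6 h, and the largest difference was 0.63 ± 0.18 at 3 h (adjusted p = 0.404). GADD45A differed by 0.47 ± 0.18 at 3 h (adjusted p = 0.609).

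AEN at 1 h did not pass either. Its control arrays were 9.25, 9.93 and 9.67 and its aminaphtone arrays were 9.22, 9.19 and 9.16, a difference of -0.43 ± 0.15 with no overlap (limma adjusted p = 0.139). At 3 h it read 9.60, 10.03 and 9.87 against 9.88, 9.77 and 9.68, and at 6 h 9.58, 9.66 and 9.60 against 9.68, 9.45 and 9.5, with overlap at both times. TP53I3, with the smallest interaction p, read 8.28, 8.88 and 8.41 in controls and 8.33, 8.31 and 8.26 with aminaphtone at 1 h. At 3 h its arrays were 8.0, 8.22 and 8.32 against 8.54, 8.49 and 8.34, and at 6 h 8.07, 8.09 and 7.98 against 8.19, 7.95 and 8.07. The aminaphtone arrays were above the control arrays only at 3 h.

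For the core targets the intervals bound the difference between aminaphtone and control. The CDKN1A difference at 1 h was -0.01, with a 95% confidence interval from limma of -0.37 to 0.35, and it was -0.00 (-0.36 to 0.36) at 3 h and -0.12 (-0.48 to 0.24) at 6 h. The average over times was -0.05 (-0.25 to 0.16). For MDM2 the intervals were wider, 0.66 (0.01 to 1.31) at 1 h, -0.17 (-0.82 to 0.48) at 3 h and -0.02 (-0.67 to 0.63) at 6 h. The value at 1 h rests on single control arrays, at 1.05 without replicate 1, 0.17 without replicate 2 and 0.77 without replicate 3. The CDKN1A difference at 1 h was likewise -0.23, 0.17 and 0.03 without control replicates 1, 2 and 3. GDF15 differed by -0.43 (-0.92 to 0.05) at 1 h, where the aminaphtone arrays lay below all control arrays, and by 0.12 (-0.37 to 0.60) and -0.08 (-0.56 to 0.41) later. FAS differed by 0.36 (-0.05 to 0.77), -0.16 (-0.57 to 0.25) and -0.17 (-0.58 to 0.24). These intervals do not show that the treatments act alike, since they allow differences of about the size that passed between times for the less responsive genes.

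**Figure D4:**
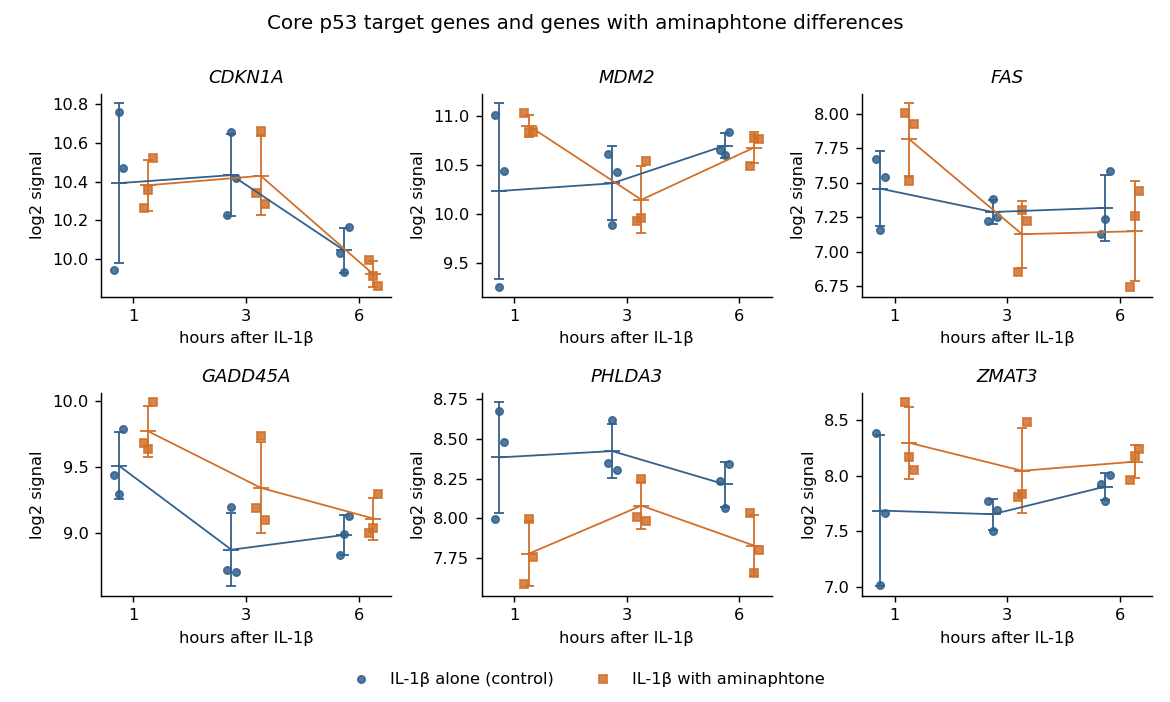
Log2 signal (y axis, own scale for each gene) against hours after IL-1β (x axis) for CDKN1A, MDM2, FAS, GADD45A, PHLDA3 and ZMAT3. Each point is 1 array, and horizontal ticks with bars are group means with 1 SD (n = 3). The control arrays at 1 h spread widely for MDM2 and ZMAT3, and the aminaphtone arrays of PHLDA3 lie below the control arrays at each time.

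The result at 1 h turned on 1 control array. Without control 1 h replicate 1, limma called 13 of the 30 genes at 1 h, 8 higher with aminaphtone (MDM2, PPM1D, CCNG1, FBXW7, ZMAT3, SESN1, TP53INP1 and RRM2B) and 5 lower (BBC3, BAX, AEN, PHLDA3 and TP53I3). In the same fit 53.9% of all transcript clusters were called, so the genes' share was below that of the whole array. The difference averaged over the times then called 10 genes, against 21.8% of all, and the interaction called 3, against 19% of all. Leaving out control 1 h replicate 2 or 3 in place of replicate 1 called none at 1 h.

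The labels number the replicates without saying that a number is shared between groups. At 1 h, deviations from the group means correlated between same-numbered control and aminaphtone arrays at 0.746, 0.411 and 0.322. At 3 and at 6 h at least 1 of the 3 correlations was negative. Deviations within a group are not independent of each other, so these correlations do not establish that the cultures were paired. With the replicate number as a block within each time, limma called 5 of the 30 genes at 1 h, against 15.6% of all transcript clusters. ZMAT3 (0.61 ± 0.18, adjusted p = 0.0468), RRM2B (0.60 ± 0.16, 0.0432) and FAS (0.36 ± 0.11, 0.0488) were higher with aminaphtone, and PHLDA3 (-0.61 ± 0.10, 0.019) and BBC3 (-0.34 ± 0.10, 0.0476) lower. ZMAT3 read 8.38, 7.02 and 7.67 in controls and 8.66, 8.17 and 8.06 with aminaphtone, higher in each of the 3 same-numbered pairs. The same block gave 7 called genes for the average over the times, 6 higher and 1 lower, against 4.65% of all.

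Other genes of the pathway were taken from 2 further lists. Fits that left out 1 array are not reported for the genes of these lists. Of 26 regulators of p53, 24 had a row and all 24 were tested. In controls 2 rose and 1 fell from 1 to 3 h, and 3 rose and 3 fell from 1 to 6 h, and with aminaphtone 1 rose and 2 fell by 3 h, and 3 rose and 2 fell by 6 h. In controls 4.81% of all transcript clusters rose and 7.98% fell by 3 h, and 11.3% rose and 15.2% fell by 6 h, while with aminaphtone the shares were 5.09% and 5.45% by 3 h and 6.01% and 10.7% by 6 h. The regulators called in controls, 3 and 6 of 24, were close to the share of all transcript clusters called in either direction, 12.8% and 26.5%. TP53BP2, which encodes a p53-binding protein that promotes its death function, rose in controls by 1.19 ± 0.26 at 3 h (limma adjusted p = 0.00707) and 1.33 ± 0.26 at 6 h, and with aminaphtone by 0.96 ± 0.26 at 6 h. Its control arrays at 1 h were 9.19, 7.75 and 8.90, with replicate 2 the lowest. USP7, a deubiquitinase of MDM2 and p53, rose by 0.87 ± 0.25 and 1.13 ± 0.25 in controls. KAT5, an acetyltransferase of p53, fell by 0.64 ± 0.18 and 0.78 ± 0.18 in controls. CHEK2, a DNA damage kinase that phosphorylates p53, fell with aminaphtone by 0.57 ± 0.15 at 3 h and 0.91 ± 0.15 at 6 h. None of the 24 passed with aminaphtone against control at any time, and the smallest p at 1 h were those of SIRT1 (0.88 ± 0.24, adjusted p = 0.138) and PPP1R13L (-0.55 ± 0.17, adjusted p = 0.139).

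Of 31 further p53 targets, 30 had a row and 28 were tested. In controls 1 rose and 4 fell by 3 h, and 3 rose and 9 fell by 6 h, and with aminaphtone 5 rose and 3 fell by 3 h, and 3 rose and 6 fell by 6 h. Of all transcript clusters, 12.8% and 26.5% were called in controls by 3 and 6 h, in either direction, and 10.5% and 16.7% with aminaphtone. ATF3, a stress-induced transcription factor, fell in controls by 0.98 ± 0.15 and 1.35 ± 0.15 at 3 and 6 h (limma adjusted p = 0.00039 and 1.27e-05), and with aminaphtone by 1.31 ± 0.15 at 6 h. SERTAD1, a regulator of cyclin-dependent kinase activity, fell by 1.23 ± 0.17 and 1.51 ± 0.17 in controls and by 1.09 ± 0.17 and 1.69 ± 0.17 with aminaphtone. TOB1, an antiproliferative protein, fell by 1.22 ± 0.16 in controls at 3 h. DRAM1, a regulator of autophagy that is named after its values were seen, was the gene that rose in controls by 3 h, by 1.32 ± 0.27, and it rose by 1.73 ± 0.27 by 6 h (3.32-fold). Its control arrays at 1 h were 9.59, 8.27 and 9.53, with replicate 2 well below the others, and 10.87, 10.75 and 10.97 at 6 h. With aminaphtone against control none of the 28 passed at any time, and the smallest p at 1 h were those of NINJ1 (-0.76 ± 0.18, adjusted p = 0.122) and TRAF4 (-0.68 ± 0.17, adjusted p = 0.127).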

How the data were processed

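Each deposited value is the log2 signal of 1 transcript cluster, which the authors computed with RMA in Affymetrix Expression Console (version not given), per the submitters' processing notes. The sources used here do not say which arrays were normalized in 1 run. Precision is limited by the number of arrays. Symbols come from GEO's platform annotation: of 28869 transcript clusters, 19310 carried 1 symbol and 1752 several. Each of the 31 matched targets had 1 row, and for 5 genes of the other lists with several the row with the highest mean was used. Annotated transcript clusters with a mean above the 25th percentile (6.193) were kept, 15796 in all. One mean per group was fitted over the 18 arrays with limma 3.58.1 in R 4.3.3 (12 residual and 4.814 prior degrees of freedom), two-sided, with Benjamini-Hochberg adjustment, and the code was tested on simulated data. Pearson correlations of same-numbered arrays' deviations exceeded 0.1 in all 3 pairs for the treatments at 1 h and for controls at 1 and 3 h (0.313, 0.359 and 0.258). Members and lists were chosen with earlier results of these data known. The array values of CDKN1A, MDM2, GDF15, FAS, GADD45A and GADD45B are given, and in each comparison those of up to 6 called members by p, or of 2 where none passed. Of the further lists up to 4 called genes by p are named, or 2. Alternatives were another filter, centring, variance model, block or sample set, and each array left out. Promoter windows are RefSeq's (GRCh38.p14), searched with Python 3.11.15.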

Additional observations from a re-analysis of the deposited data

How the results depend on the processing

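Replicate block: with the replicate number as a block within each time, 5 of the genes were called at 1 h for aminaphtone against control and 7 on average over the times, and a block over all groups moved no count of called genes by more than 1.5 times. A stricter filter on low signal left 7 called with aminaphtone from 1 to 6 h. XPC, FAS, TP53INP1 and EDA2R, called there in the main fit, lay below its cut of 7.534 and were not tested. Fitting only the groups compared gave 2 and 7 in controls (1 to 3 h, 1 to 6 h) and 18 with aminaphtone (1 to 6 h). The share of all transcript clusters called in those fits is not given here. In sets of fits that each left out 1 array, the called genes ranged from 0 to 13 for aminaphtone against control at 1 h, 0 to 0 at 3 h and at 6 h, 0 to 10 for the average and 0 to 3 for the interaction. In controls they ranged from 8 to 12 (1 to 3 h), 8 to 18 (1 to 6 h) and 0 to 1 (3 to 6 h), and with aminaphtone from 6 to 15, 7 to 16 and 0 to 1. The highest values at 1 h, for the average and for the interaction came without control 1 h replicate 1. Of the alternatives run for the named genes in the comparisons they were named for, 1274 kept direction and side of the threshold, 82 lost the call, 8 gained it and 0 reversed. Over all transcript clusters, leaving out 1 array gave between 6 and 8516 calls at 1 h, where the full fit gave 14. From 1 to 3 h it gave 988 to 5719 in controls (2020 in the full fit) and 790 to 2641 with aminaphtone (1665). From 1 to 6 h it gave 2586 to 7083 in controls (4185) and 1643 to 4008 with aminaphtone (2644). The alternative with a gene's second highest row could not be run, since each of the 31 targets had 1 row. The cause of the other shifts was not tested.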
